A study of Vitis rotundifolia with 12 samples.

Results

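Across the pedicel transcriptomes of a pair of muscadine grape genotypes, 64 of 26394 gene models had more transcript at maturity than at the pea-size stage in the weakly attached genotype and less in the strongly attached one. They were selected on CPM, the count of a gene model divided by all counts on gene models in its library, times 1000000. In the weakly attached genotype all 3 maturity libraries had to lie above all 3 pea-size libraries, with a ratio of group means of at least 2, and in the strongly attached genotype all 3 maturity libraries had to lie below all 3 pea-size libraries, with a ratio of at most 0.5. A pseudocount of 0.5 CPM was added to each mean, and at least 1 of the 4 group means had to reach 5 CPM, which 15170 gene models did. Because the members were selected on these stage values, their stage differences are given as a description, and no test of a stage difference is read as a result. The same limits turned round, lower at maturity in the weakly attached genotype and higher in the strongly attached one, held for 38 gene models. Those higher at maturity in both genotypes numbered 173, and those lower in both 206.

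The pedicel is the stalk that carries the berry, and its junction with the fruit holds the abscission zone, a band of small cells along which the fruit separates. Separation follows a shift in the balance of hormones, with ethylene and abscisic acid promoting it and auxin holding it back, and it ends with enzymes that loosen the cell walls and dissolve the middle lamella between neighbouring cells. How easily a ripe muscadine comes off its stalk decides whether it can be picked by machine.

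The tissue was pedicel from field-grown vines at Citra, Florida, frozen in liquid nitrogen. The weakly attached genotype was Ga. 12-3-22 (W) and the strongly attached genotype was Ga. 6-1-269 (S), each sampled at maturity and at the pea-size stage with 3 biological replicates. The 4 groups thus hold 12 libraries made with a directional RNA-seq kit. Each attachment class is represented by 1 genotype, so attachment and every other difference between these genotypes cannot be told apart. The pedicel is a mixed tissue, and in it fewer cells of a type and less RNA per cell cannot be told apart.

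The deposited values are whole read counts per gene model of the cultivar 'Noble'. The files do not pair the gene model IDs with gene names, so members could not be given a function, no marker of the abscission zone or of another cell type could be read, and 4 members are identified by ID. Gene counts ran from 4705119 (W maturity replicate 1) to 21971736 per library, with a median of 11427219. The share of reads outside any gene model was 30.4% in S maturity replicate 1 and 21.8% in S maturity replicate 2, against 10.6% to 17.6% in the other libraries.

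The 64 members formed a crossed pattern of high and low levels. Over the members, the median of the group means was 28.7 CPM at W maturity (from 3.08 to 1342 CPM), against 7.38 CPM at W pea-size (from 0 to 537 CPM). In S the median was 5.35 CPM at maturity (from 0.200 to 441 CPM), against 32.1 CPM at pea-size (from 3.71 to 1204 CPM). Members thus stood at similar median levels in W maturity and S pea-size pedicels, and at similar low median levels in the remaining groups. All 4 groups together, their median level was 20.8 CPM, close to the 24.3 CPM of all gene models with a group mean of at least 5 CPM.

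**Figure D1:**
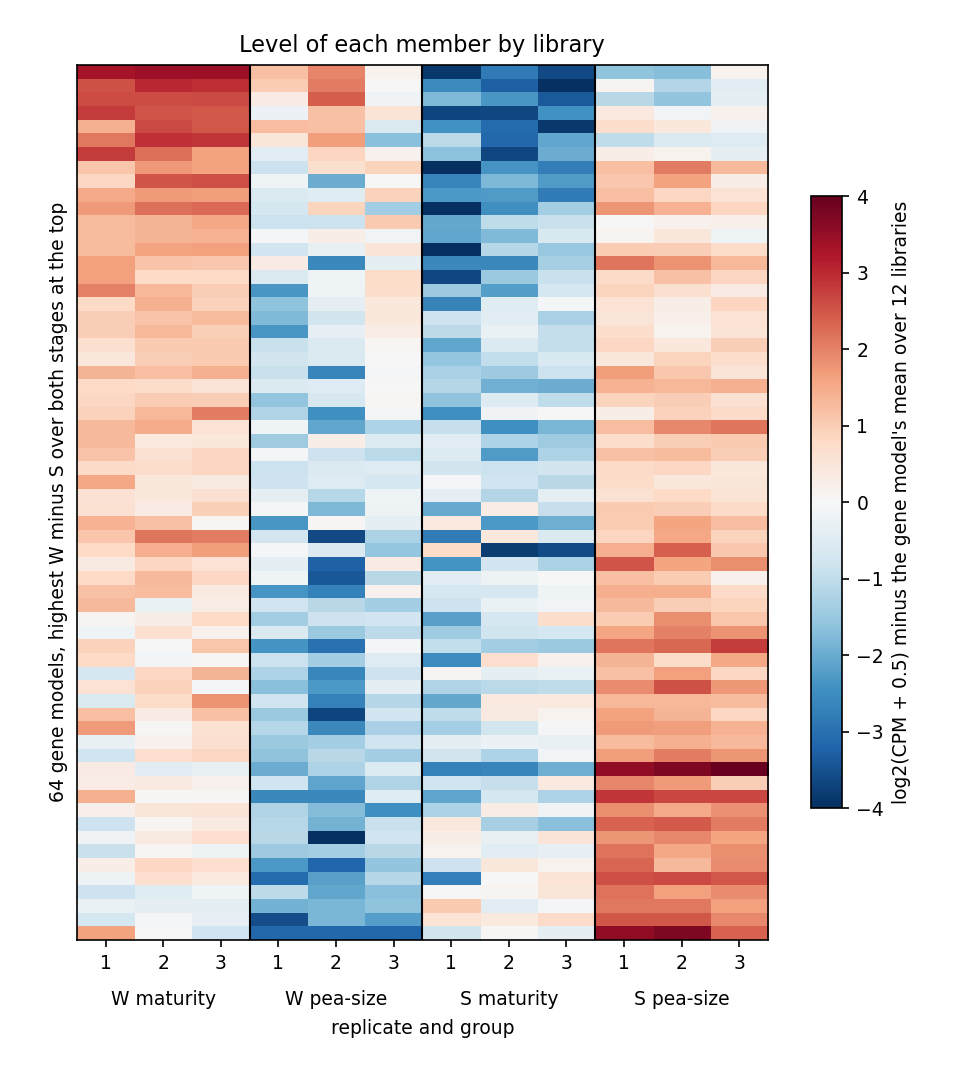
Level of each of the 64 members (down the page) in each of the 12 libraries (across), as log2(CPM + 0.5) minus the gene model's own mean, sorted by the difference of W minus S over both stages. Red marks the W maturity and S pea-size libraries and blue the W pea-size and S maturity libraries in most members, while members at the top are high mainly at W maturity and those at the bottom mainly at S pea-size.

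The difference between stages was larger in S than in W for most members. The ratio of maturity over pea-size in W had a median of 2.97 and ran from 2.04 to 13.6, and 33 of the 64 members had a ratio under 3. In S, the fold by which pea-size exceeded maturity had a median of 3.85 and ran from 2.10 to 75.6. The fold in S exceeded that in W in 45 members, and the reverse held in 19. A fold of at least 5 was reached by 7 members in W and by 26 in S, and 2 members reached it in both genotypes. Stage ratios also spread more widely in S over all gene models with a group mean of at least 5 CPM. The quartiles of their log2 ratio of maturity over pea-size were -0.64 and 0.51 in S, against -0.41 and 0.37 in W. The larger folds in S are therefore not read as particular to the members.

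Of the 4 groups, S pea-size had the highest mean in 37 members and W maturity in the other 27. The lowest mean was that of S maturity in 36 members and that of W pea-size in 28. The mean at W maturity was within 2-fold of the mean at S pea-size in 35 members, the mean at W pea-size was within 2-fold of that at S maturity in 33, and both held in 24. In these 24 the stages of one genotype had about the levels of the opposite stages of the other.

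The member nearest to such an exchange of levels, singled out after its values were seen, lies on chromosome 12. It had 103, 91.6 and 104 CPM at W maturity, against 53.3, 31.2 and 60.7 CPM at W pea-size. It had 53.8, 30.4 and 53.3 CPM at S maturity, against 105, 120.5 and 101 CPM at S pea-size. All 6 libraries of W maturity and S pea-size lay above all 6 of W pea-size and S maturity.

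The most abundant member, also singled out by its values, lies on chromosome 2. It had 1100, 1455 and 1470 CPM at W maturity, against 384, 478 and 751 CPM at W pea-size. At S maturity it had 166, 477 and 364 CPM, against 1255, 952 and 1406 CPM at S pea-size. High and low libraries did not overlap in either genotype, and the lowest value of all was that of S maturity replicate 1. Abundance varied widely among the members, with a group mean of at least 100 CPM in 17 and a highest group mean under 20 CPM in 15.

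Identified by ID are the members with the largest ratios in W and, of the rest, those with the largest folds in S. The first, evm.model.chr11.568 on chromosome 11, had 13.0, 3.92 and 2.03 CPM at W maturity, against 0 counts in all 3 W pea-size libraries. At S maturity it had 2.18, 4.07 and 2.91 CPM, against 51.5, 58.8 and 22.3 CPM at S pea-size. It was the single member with no count in a whole group, and its transcript was most plentiful in young S pedicels. For the W pea-size group, a limit of 3 counts over its libraries is 0.102 CPM. The W maturity level, 4.71 CPM when pooled over libraries, was 46.1-fold this limit. That value describes a gene model picked for its ratio in W. It makes no allowance for the spread of the W maturity libraries, from 2.03 to 13.0 CPM, so it is not a lower bound. Single W libraries were also left out, a check chosen after seeing the data. Dropping the first W maturity library gave 26.8-fold, and dropping the third gave 72.8-fold. Dropping the third W pea-size library gave 21.9-fold, and the other omissions gave 34.8- to 49.5-fold. The pooled S pea-size level of 42.1 CPM was 412-fold the limit over all W pea-size libraries. With the third W pea-size library dropped, that value was 196-fold.

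The gene model evm.model.chr18.212 on chromosome 18 had 12.8, 26.9 and 24.8 CPM at W maturity, against 3.199, 0 and 2.08 CPM at W pea-size. It had 0.380, 7.84 and 3.64 CPM at S maturity, against 10.6, 17.5 and 10.8 CPM at S pea-size. Its ratio in W was 9.73, and its fold in S was 3.02. Here W maturity was the highest group, and the S maturity libraries were spread widely.

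The largest fold in S belonged to evm.model.chr3.191 on chromosome 3, which had 0.474, 0.509 and 1.14 CPM at S maturity, against 73.2, 84.4 and 114.5 CPM at S pea-size, a 75.6-fold difference. In W it had 7.44, 4.19 and 4.71 CPM at maturity, against 1.11, 2.22 and 3.83 CPM at pea-size, with a ratio of 2.06. The level in S pea-size pedicels was the high one, and the 3 other groups were low.

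The last of the 4, evm.model.chr8.1999 on chromosome 8, had 0.759, 5.24 and 3.82 CPM at S maturity, against 67.4, 122.6 and 71.9 CPM at S pea-size, a 23.3-fold difference. In W it had 62.7, 96.7 and 89.7 CPM at maturity, against 15.7, 45.6 and 53.7 CPM at pea-size, with a ratio of 2.15. Its transcript was abundant in 3 of the groups and nearly lost in the mature S pedicel, the opposite of the preceding gene model.

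**Figure D2:**
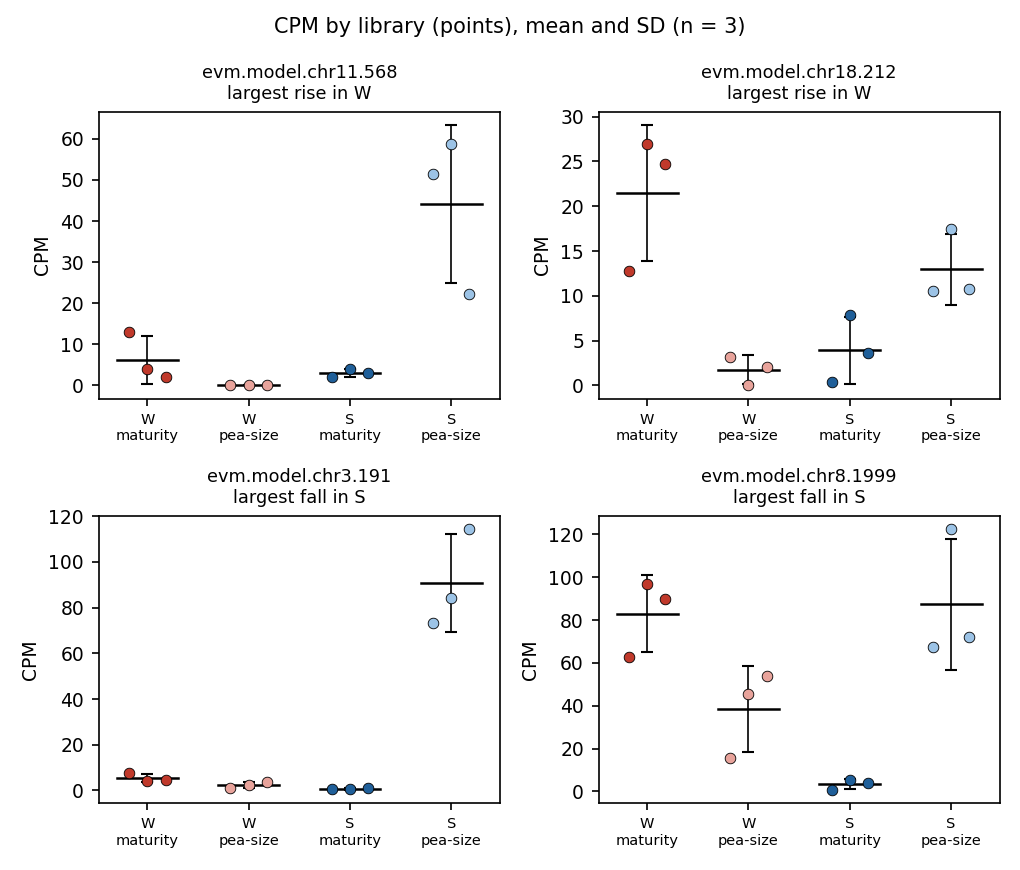
CPM of the 4 members identified by ID in each library (points), with the group mean (long bar) and SD (error bar, n = 3), W maturity and W pea-size left of S maturity and S pea-size. The gene model on chromosome 3 is high in S pea-size libraries alone (73.2 to 114.5 CPM), whereas that on chromosome 8 is low in S maturity libraries alone (0.759 to 5.24 CPM).

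The rule sets only how far the genotype ratio moves between the stages, at least 4-fold, and not where each ratio lies. The ratio of W over S at pea-size had a median of 0.257 over the members, and that at maturity a median of 3.55. Over all 15170 gene models the medians were 0.914 and 0.948. At pea-size all 3 W libraries lay below all 3 S libraries in 49 of the 64 members (76.6%), against 24.4% of all gene models. At maturity all 3 W libraries lay above all 3 S libraries in 44 members (68.8%), against 15.1% of all gene models. Both held in 29 members (45.3%), against 1.77% of all. The rule made the pattern likelier, so nothing is read from these shares.

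By the 2-fold limits at each stage the members fell into 4 classes. The rule shuts out some of the other classes, since the ratio of W over S must rise at least 4-fold. The class sizes are therefore given as a description. In 32 members S was over 2-fold higher at pea-size and W over 2-fold higher at maturity, a change of order that 1.25% of all gene models showed. Their median level was 11.1 CPM at W maturity, against 2.81 CPM at W pea-size, and 3.06 CPM at S maturity, against 20.2 CPM at S pea-size. The genotypes did not overlap at either stage in 27 of these 32. Here and in the next classes the share of all gene models without overlap was not counted by class, so nothing is read from such counts.

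A second class of 16 members was higher in S at pea-size and within 2-fold between the genotypes at maturity. At pea-size its median fold of S over W was 10.2, and no W library reached an S library in any of the 16. At maturity its median ratio of W over S was 1.45, and in 2 members W still lay below S without overlap. That the genotypes differed mainly in the young pedicel follows from how this class is defined, and is not read as a result.

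The third class, 12 members, was within 2-fold at pea-size and higher in W at maturity, with a median ratio of W over S of 6.99 at maturity. All 12 had W maturity libraries above all S maturity libraries. The last 4 members were higher in W at both stages, with a median ratio of 48.9 at maturity, and 3 of the 4 lie close together on chromosome 10.

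**Figure D3:**
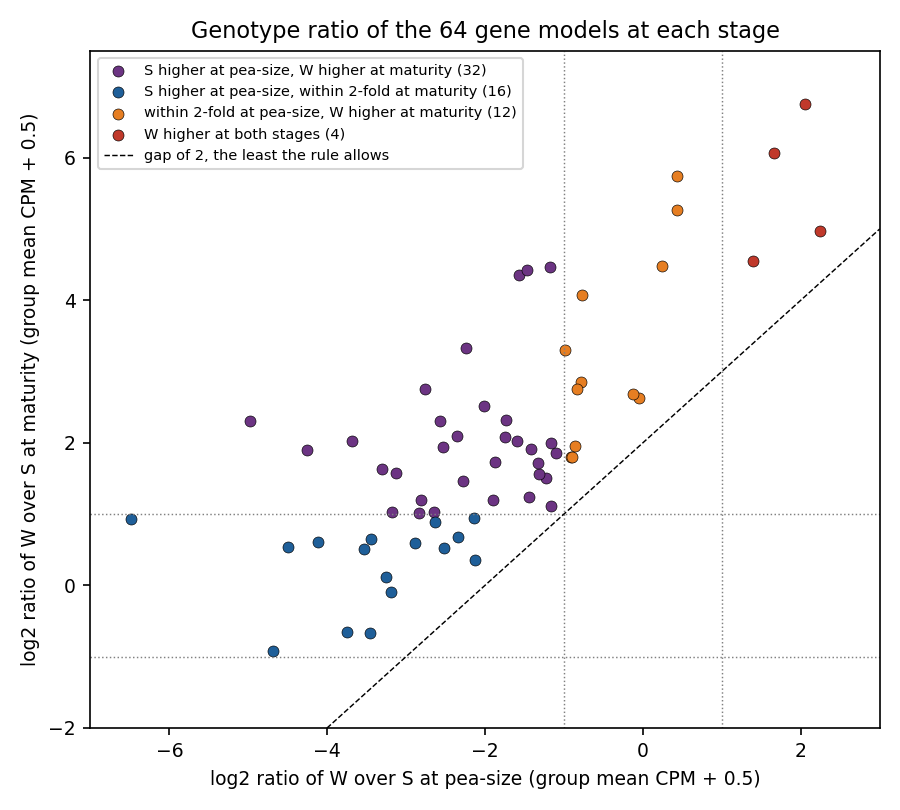
Genotype ratio of each member at pea-size (across) and at maturity (up), both as the log2 ratio of W over S group means with 0.5 CPM added. Dotted lines mark 2-fold, and all 64 members lie above the dashed line because the rule requires it. The 32 members in which the order of the genotypes changed fill the upper left, and the 4 that were higher in W at both stages lie at the upper right.

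The genotype difference averaged over both stages was not a condition of the rule, and it was the tested quantity. With edgeR's quasi-likelihood test over the 12 libraries and Benjamini-Hochberg adjustment over the 18439 gene models that passed the filter on low counts, which included all 64 members, 13 members (20.3%) were higher in W, against 3.67% of all gene models. Another 11 members (17.2%) were lower in W, against 6.6% of all. To be called, a gene model needed a log2 fold change (log2FC) of at least 1 in size with an adjusted p no higher than 0.05. Among gene models with a group mean of at least 5 CPM the shares were 4.19% higher and 6.86% lower. The share called among the members was above the background in both directions. Their median log2FC of 0.03 lay near the -0.06 of all gene models. The rule leaves no member within 2-fold between the genotypes at both stages, as 55.9% of gene models with a group mean of at least 5 CPM were. The background was not matched for this, so the higher shares are not read as a result. The remaining 40 were not called, and an unadjusted p under 0.05 was found for 33 of the 64 (51.6%), against 29.1% of all gene models tested.

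The classes and the tested average rest on the same genotype differences, so their overlap is given as a count. The 13 members higher in W were the 4 that were higher in W at both stages, 7 of the 12 within 2-fold at pea-size and 2 of the 32 whose order changed. The 11 lower in W were 10 of the 16 within 2-fold at maturity and 1 of the 32. In 29 of the 32 the average over both stages was not called.

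The highest log2FC were those of 3 members with neighbouring IDs on chromosome 10, which span 7 ID numbers and have 4 gene models between them that were almost silent. The first by ID had 71.6, 76.4 and 77.3 CPM at W maturity, 16.0, 27.3 and 7.40 CPM at W pea-size, 0, 0.509 and 0.0910 CPM at S maturity and 1.85, 1.74 and 7.54 CPM at S pea-size. Its log2FC of W minus S over both stages was 5.36 (standard error 0.60, adjusted p = 0.000196 by edgeR's quasi-likelihood test with Benjamini-Hochberg adjustment). The gene model was nearly absent from mature S pedicels and strongly transcribed in mature W pedicels.

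The second by ID had 93.3, 131 and 126 CPM at W maturity, 32.0, 66.5 and 16.0 CPM at W pea-size, 2.28, 1.17 and 0.319 CPM at S maturity and 16.8, 6.74 and 11.5 CPM at S pea-size. The third had 57.2, 56.9 and 58.0 CPM at W maturity, 11.4, 49.8 and 7.98 CPM at W pea-size, 2.28, 1.37 and 0.410 CPM at S maturity and 3.87, 2.66 and 6.90 CPM at S pea-size. The same W pea-size library, replicate 2, was the highest of its group in all 3, and replicate 3 the lowest. Their log2FC were 4.20 (standard error 0.51, edgeR adjusted p = 0.000378) and 3.95 (standard error 0.56, edgeR adjusted p = 0.000924). At pea-size the genotypes overlapped in the first and second and not in the third, and at maturity no W library of the 3 gene models was under 56.9 CPM and no S library above 2.28 CPM.

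A pair of adjacent members on chromosome 18 had a similar shape. The first by ID had 43.4, 28.1 and 18.8 CPM at W maturity, 4.03, 10.8 and 6.56 CPM at W pea-size, 1.52, 0 and 1.09 CPM at S maturity and 7.09, 6.34 and 4.41 CPM at S pea-size. The second had 61.4, 50.5 and 48.8 CPM at W maturity, 7.09, 19.4 and 12.4 CPM at W pea-size, 0.190, 0.204 and 1.14 CPM at S maturity and 11.0, 7.77 and 9.53 CPM at S pea-size. In both, the pea-size levels of the genotypes overlapped and the mature levels did not. The log2FC over both stages was 2.78 for the first (standard error 0.64, edgeR adjusted p = 0.0130) and 3.67 for the second (standard error 0.41, edgeR adjusted p = 0.000143).

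**Figure D4:**
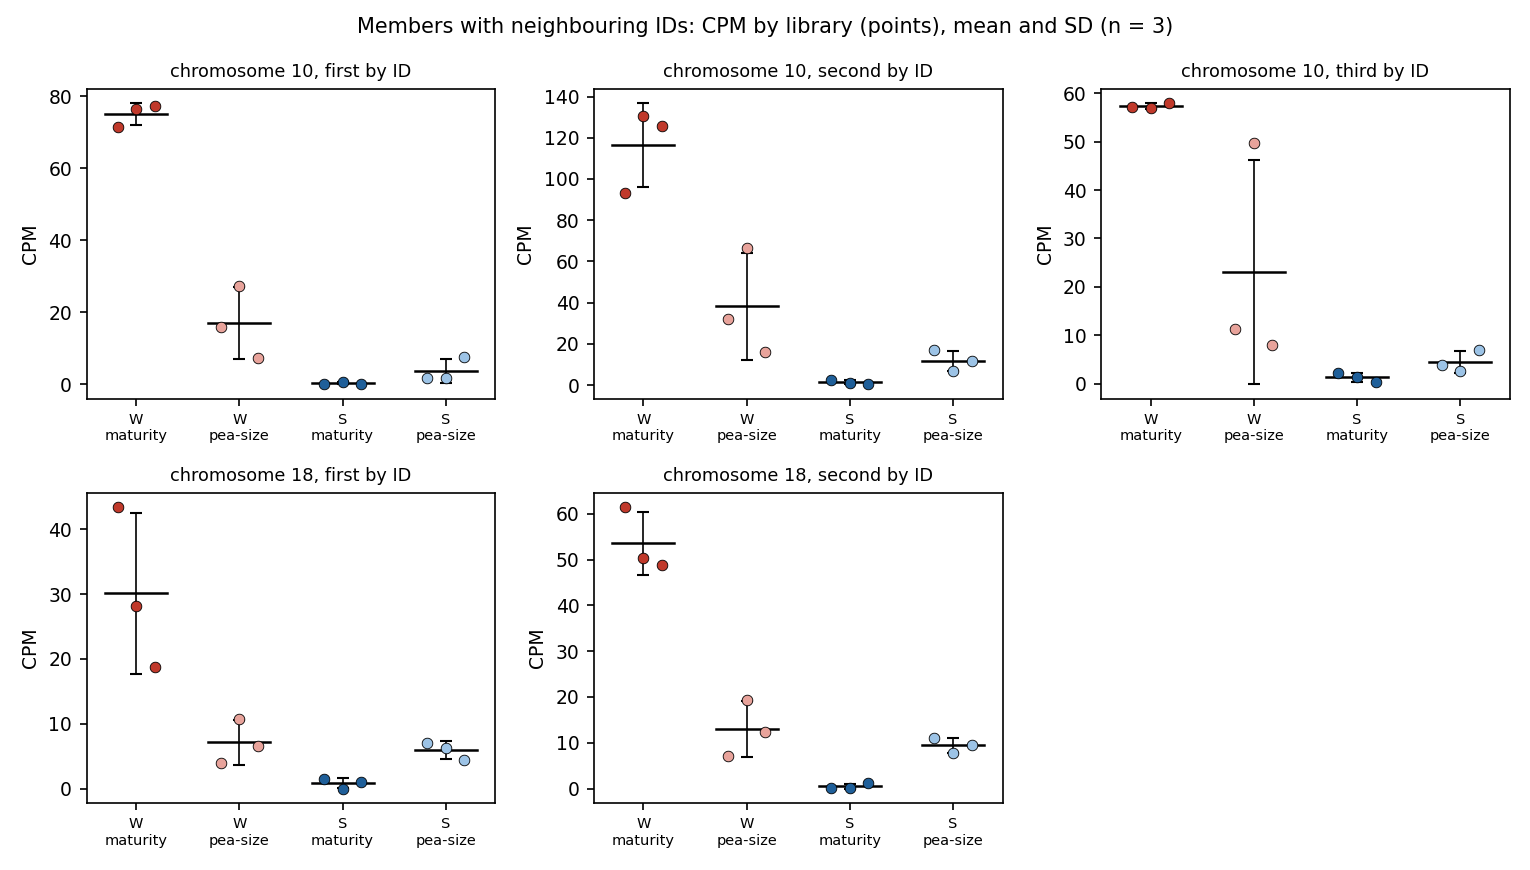
CPM in each library (points) of the 3 neighbouring members on chromosome 10 and the adjacent members on chromosome 18, with the group mean (long bar) and SD (error bar, n = 3). All 5 are highest at W maturity and lowest at S maturity, where no library exceeds 2.28 CPM.

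Within the groups, the deviations of the 3 gene models on chromosome 10 from their group means had a mean pairwise correlation of 0.653 over the 12 libraries, and those of the chromosome 18 pair one of 0.553. Over all pairs of members the mean was 0.0752, against 0.0492 over all gene models. The correlation of other neighbouring gene models is not given here, so these values are not called particular to the members. A further pair, on chromosome 8 with 3 gene models between them that were not members, had -0.109. Neighbouring gene models that resemble each other in sequence can share or lose reads when only uniquely mapped reads are counted, and this could not be checked without their sequences. The other 57 members had no second member within 10 ID numbers. Members were found on all 20 chromosomes, with 1 to 6 on each.

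Other members called higher in W included 1 on chromosome 19, with 18.9, 44.2 and 39.9 CPM at W maturity, 16.4, 15.8 and 4.35 CPM at W pea-size, 0.854, 0.356 and 0 CPM at S maturity and 11.2, 9.30 and 6.11 CPM at S pea-size. Its log2FC over both stages was 3.54 (standard error 0.64, edgeR adjusted p = 0.00355). A member on chromosome 4 had 71.0, 124 and 118 CPM at W maturity, 22.7, 52.0 and 4.67 CPM at W pea-size, 7.21, 1.37 and 3.41 CPM at S maturity and 7.66, 10.5 and 11.0 CPM at S pea-size. The difference over both stages was 3.14 on the log2 scale (standard error 0.56, edgeR adjusted p = 0.00452), and its W pea-size libraries followed the same order as those of the chromosome 10 group. Over the 13 calls the log2FC ran from 1.32 to 5.36, with a median of 2.78.

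The 11 members lower in W had log2FC from -5.44 to -1.05, with a median of -1.76. The lowest was evm.model.chr11.568, at -5.44 (standard error 0.77, edgeR adjusted p = 0.00124), where the size rests on the prior count since the W pea-size group is at 0. The next, on chromosome 2, had 17.2, 27.2 and 22.2 CPM at W maturity, 1.95, 7.53 and 5.71 CPM at W pea-size, 41.4, 37.1 and 48.4 CPM at S maturity and 161, 160.4 and 109 CPM at S pea-size. Its log2FC was -2.79 (standard error 0.28, edgeR adjusted p = 6.18e-05), and the S libraries lay above the W libraries at both stages.

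A member on chromosome 3 had 4.89, 4.46 and 4.63 CPM at W maturity, 1.25, 1.33 and 1.62 CPM at W pea-size, 13.0, 4.22 and 5.64 CPM at S maturity and 27.7, 27.6 and 19.6 CPM at S pea-size, and its log2FC was -2.37 (standard error 0.43, edgeR adjusted p = 0.00332). An abundant one on chromosome 7 had 165, 211 and 262 CPM at W maturity, 140.4, 69.6 and 91.3 CPM at W pea-size, 295, 314 and 409 CPM at S maturity and 1333, 906 and 1079 CPM at S pea-size. Its log2FC was -1.97 (standard error 0.22, edgeR adjusted p = 0.000148). In the chromosome 7 gene model the W level at maturity stayed under every S library of either stage.

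Of the other members identified by ID, evm.model.chr8.1999 stood at 1.84 on the log2 scale over both stages (standard error 0.37, edgeR adjusted p = 0.00684) and evm.model.chr3.191 one of -1.05 (standard error 0.33, edgeR adjusted p = 0.0499), just inside the threshold. For evm.model.chr18.212 the value was -0.10 (standard error 0.67, edgeR adjusted p = 0.948), since its higher level in W at maturity and its lower level in W at pea-size averaged out.

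The same test applied to the stages gives counts that the selection shaped, and nothing is read from them. In the 6 W libraries, edgeR called 10 of the 64 members higher at maturity (15.6%), against 0.439% of all gene models. In the 6 S libraries 33 members were called lower at maturity (51.6%), against 5.03% of all gene models. Both calls fell on 8 members (12.5%), and the share of all gene models with both is not given here. The count in W ranged from 1, without any 1 of the W maturity replicates, to 23 without W pea-size replicate 3, with 3 and 6 without W pea-size replicates 1 and 2. The count in S ranged from 6 to 55, being 55 when S maturity replicate 1 was left out, 16 and 20 for replicates 2 and 3 of that group, and 7, 6 and 7 for S pea-size replicates 1, 2 and 3. The shares of all gene models called in these omissions are not given, so the shifts cannot be tied to the members in particular.

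Gene models chosen on 2 replicates showed the pattern less often in the replicate left out, where the choice did not require it. The rule was applied to 2 replicates of each group, and the remaining one was used to read the direction. With fewer libraries that must not overlap the rule is easier to meet. Members were 49, 54 and 59 of the gene models chosen without replicates 1, 2 and 3. The shares below therefore describe these wider sets and not the members. Choosing without replicate 1 gave 244 gene models, of which 68 (27.9%) were higher at maturity in W and lower in S in replicate 1, against 27.7% of all gene models that reached 5 CPM. Without replicate 2 it gave 111, of which 77 (69.4%) had both directions in replicate 2, against 31.5% of all. Without replicate 3 it gave 251, of which 112 (44.6%) had both, against 21.4% of all. The share for replicate 1 was at the background.

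The direction in S was seen more often than that in W. Lower values at maturity in S were found in 79.5%, 92.8% and 84.9% of the gene models chosen without replicates 1, 2 and 3, against 63.4%, 56.3% and 46.8% of all. Higher values at maturity in W were found in 35.7%, 75.7% and 51.4%, against 45.3%, 56.6% and 46.9%. The median log2 ratio of maturity over pea-size in the held-out W libraries was -0.39, 1.25 and 0.04, where the libraries used to choose gave 1.57, 1.53 and 1.62. In S it was -1.98, -1.90 and -1.10, where the libraries used to choose gave -2.03, -1.63 and -1.75. Library numbers were not taken to tie a W library to an S library, so the 3 combinations are those of the labels' numbering.

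**Figure D5:**
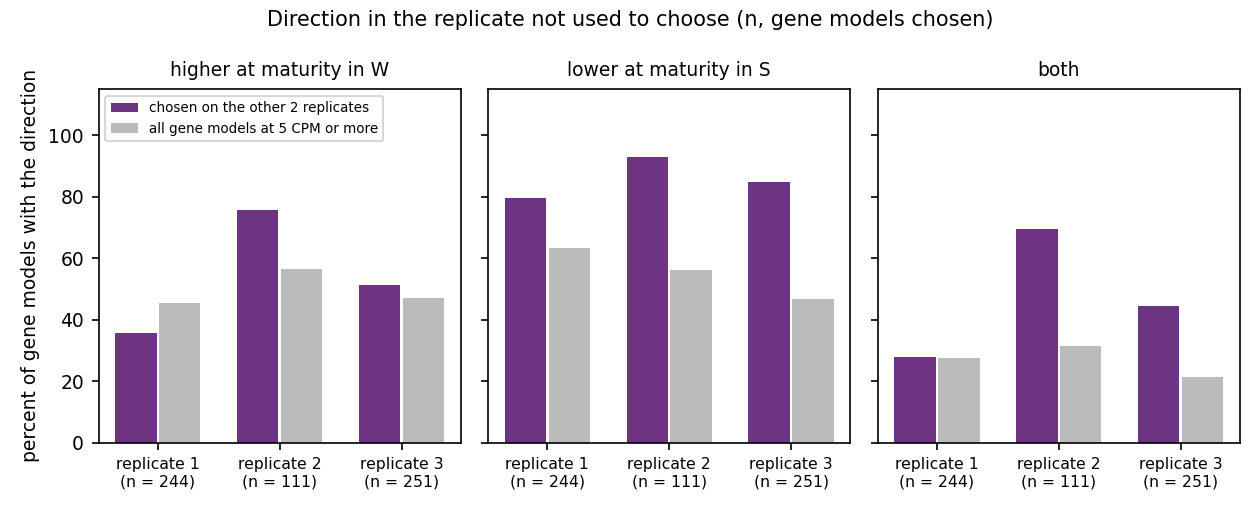
Percent of gene models with the stated direction in the replicate that was not used to choose them (purple), beside the percent of all gene models that reached 5 CPM (grey). The purple bars exceed the grey ones for S in all 3 replicates, whereas for W replicate 1 has 35.7% against 45.3%.

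The number of gene models that met the rule rose most on leaving out W pea-size replicate 3 or W maturity replicate 1. An omission leaves fewer libraries that must not overlap, so the rule is easier to meet and a number above 64 was favoured. With 1 library left out the number ran from 66 to 155, and it was 143 without W maturity replicate 1 and 155 without W pea-size replicate 3. The other 10 omissions gave 66 to 81. Of the 64 members, 45 were kept in all 12 omissions, and every member was kept in at least 8. W maturity replicate 1 was the library with the fewest counts. In W pea-size replicate 3, 46 of the 64 members lay above their group mean. The median deviation there over all 64 was 0.41 on the log2 scale, against 0.11 over all gene models.

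The members varied more between replicates than all gene models in the groups where the rule required them to be low. Their median SD of log2(CPM + 0.5) was 0.872 at W pea-size, against 0.529 for all gene models, and 0.711 at S maturity, against 0.579. In the groups where they were high it was 0.381 at W maturity, against 0.440, and 0.307 at S pea-size, against 0.275. No count was found for 13 of the 64 members (20.3%) in W pea-size replicate 2, against 5.77% of all gene models with a group mean of at least 5 CPM. The members took 0.528% to 0.585% of all counts at W maturity, against 0.165% to 0.270% at W pea-size, and 0.126% to 0.235% at S maturity, against 0.632% to 0.736% at S pea-size. The rule fixes that the stages do not overlap in these shares. These comparisons of spread and of libraries without a count were not matched for level. The median group mean at W pea-size was 7.38 CPM over the members, against 21.3 CPM over all gene models with a group mean of at least 5 CPM. At S maturity it was 5.35 CPM, against 23.8 CPM. The part of sampling noise in the spread at low counts was not tested.

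Several gene models lay just outside the limits. The lowest ratio in W among the members was 2.04, on chromosome 2, and the highest among those that failed on this ratio alone was 1.96, on chromosome 13. The smallest fold in S was 2.10 inside, on chromosome 6, and 1.99 outside, on chromosome 13. The gene model outside on that count was abundant, with means of 912 CPM at W maturity, 441 CPM at W pea-size, 201 CPM at S maturity and 400 CPM at S pea-size. By level, the lowest of the members' highest group means was 6.25 CPM, against 4.49 CPM for the nearest one outside. A further 87 gene models failed only because W libraries of the stages overlapped, 52 only by the ratio in W, 11 only by an overlap in S, 9 only by the ratio in S and 8 only by level. The conditions in W thus held back far more gene models than those in S.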

How the data were processed

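The authors trimmed reads with Cutadapt, mapped them to the 'Noble' genome with STAR, removed potential PCR duplicates and, with HTSeq, counted uniquely mapped reads; the strand setting is not given in the sources used here. The deposited counts (26394 gene models, 5 summary entries left out of totals) were used raw. Groups follow the genotype and developmental stage labels; the tissue type label reads mature throughout and was not used. None of the IDs (0) occurs in the gene name table. The members and lists were chosen with earlier results of these data known. Python 3.11.15 (NumPy 2.4.6, pandas 2.3.3, matplotlib 3.10.9) applied the rule. R 4.3.3 with edgeR 4.0.16 (limma 3.58.1) fitted TMM-scaled counts with 1 mean per group after filterByExpr (minimum count 10, minimum total 15); the stage tests used each genotype's 6 libraries. Standard errors are the log2FC over the square root of F. Scripts were tested on simulated data. Identified by ID were the 2 members with the largest ratio in W and, of the rest, the 2 with the largest fold in S. Replicate numbers were not taken to pair libraries (correlations of deviations from -0.0864 to 0.0376), though such values do not show that a pairing is absent. All replicate pairs differed by more than sampling noise (chi-square over its degrees of freedom at least 11.6). The labels do not say which vines the replicates came from, so p-values measure the spread between these libraries, and the limit of 3 counts covers counting error only. Alternatives were DESeq2 1.42.0, other scalings, filters, pseudocounts and thresholds, a replicate block and each library left out.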

Additional observations from a re-analysis of the deposited data

Results flagged for a closer look

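In the 4 members identified by ID, all maturity libraries lay above all pea-size libraries in W and below them in S. The log2 ratio of maturity over pea-size in W minus that in S was 7.42 for evm.model.chr11.568, a value that depends on the pseudocount because its W pea-size libraries hold no count. It was 4.88 for evm.model.chr18.212, 7.28 for evm.model.chr3.191 and 5.64 for evm.model.chr8.1999. The difference was not tested, since the members were selected on it.

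Reads on no gene model made up 30.4% in S maturity replicate 1 and 21.8% in S maturity replicate 2, above all pea-size libraries. Without S maturity replicate 1 the rule held for 80 gene models, 59 of them members, though any such omission makes the rule easier to meet. The part of the uncounted reads in the S values was not tested.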

How the results depend on the processing

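The number of gene models that met the rule was 113 with a ratio of 1.5, 23 with a ratio of 3 and 178 without the condition that libraries do not overlap, and stayed from 49 to 72 under the other scalings, pseudocounts and level limits. With TMM-scaled library sizes or with DESeq2's size factors it was 61. Leaving out 1 library, which makes the rule easier to meet, gave 66 to 155, the highest when W pea-size replicate 3 was left out, with 143 for W maturity replicate 1. Members called higher in W over both stages numbered 10 to 15 and those called lower 8 to 14 with 1 library left out. With at least 10 counts in every library 30 members were tested and 4 were called higher. DESeq2 called 15 higher and 13 lower. Under the replicate block, 12 were higher and 9 lower, while 30 were called higher at maturity in W and 17 lower at maturity in S. For the stage call in W, DESeq2 gave 27, the minimum of 10 counts 6, dropping the filter 20, and 1 fit of all 12 libraries 5, and leaving out 1 library gave 1 to 23. For that in S, leaving out 1 library gave 6 to 55. The causes of these shifts were not tested, apart from the smaller number of members tested under the count minimum. The shares of all gene models called under these settings are not given. Shifts of the members alone therefore cannot be told apart from shifts of all gene models. In every fit the groups shared 1 estimate of the spread, so with 2 libraries in a group it rested more on the other groups. Held-out counts by TMM-scaled sizes were 60 of 244, 72 of 111 and 98 of 200.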
